A study of Mus musculus with 9 samples.

Results

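The T cell receptor of CD8+ T cells is read out by a small set of invariant partners, and their transcripts were measured here in WT and Tsc1-/- cells. The group was defined by name: the CD3 chains Cd3d, Cd3e and Cd3g, the zeta chain Cd247, the coreceptor chains Cd8a and Cd8b1, the kinases Lck and Zap70, and the adaptors Lat and Lcp2. Of these 10 genes, 9 had at least 1 array probe set annotated to that gene alone, with 15 such probe sets in all, out of 17097 genes measured. Lck had no such probe set and was not analysed here. The brightest probe set over the 9 arrays stands for its gene.

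When the receptor binds a peptide on an MHC molecule, Lck, held at the coreceptor, phosphorylates the cytoplasmic ITAM motifs of the CD3 and zeta chains. Zap70 docks on these motifs and phosphorylates the adaptors Lat and Lcp2 (SLP-76), which assemble the complex that turns on calcium, Ras and NF-kB signalling. The alpha-beta receptor normally needs all CD3 chains to reach the surface, and the zeta chain is the last to join. Tsc1 forms part of the complex that restrains mTORC1, a kinase that drives growth, and antigen signals are among the inputs that activate mTORC1 in T cells.

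The cells were OVA-specific CD8+ T cells from the spleen of C57BL/6 mice at day 9 after infection with Listeria monocytogenes, isolated by flow cytometry. All mice carried floxed Tsc1 alleles. The 4 WT samples (Tsc1-fl/fl) came from mice without cre and the 5 Tsc1-/- samples from mice positive for Granzyme B-cre, a cre placed under a gene that T cells switch on after activation, so cre and loss of Tsc1 cannot be told apart. Age is not given in the sources used here. Because cells were gated on CD8 and antigen specificity, the presence of Cd8a and Cd8b1 in all arrays is set by the sort and is no finding. Values are log2 expression from RMA, 1 array per sample, and all differences are Tsc1-/- minus WT.

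The arrays correlated at 0.983 to 0.993 with each other over all genes. Tsc1, the targeted gene, read 7.77, 7.61, 7.71 and 7.56 in WT and 7.43, 7.27, 7.51, 7.44 and 7.35 in Tsc1-/-, a difference of -0.26 (SE 0.08, adjusted p = 0.114, limma) with no overlap. This corresponds to a level of 83% of WT. Its other probe sets, 1422043_PM_at and 1439989_PM_at, differed by -0.32 and -0.013 (adjusted p = 0.166 and 0.964 over probe sets, limma). How far Tsc1 was lost cannot be read from these values. WT replicate 4 stood apart from the other WT arrays in some markers of other spleen cells. Its macrophage and monocyte marker mean was 6.47, against 7.09 to 7.23 in the other WT arrays and 6.27 to 6.60 in Tsc1-/-. In a bulk sample, fewer cells of a type and less RNA per cell cannot be told apart.

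The comparison of genotypes asks whether effector cells of the Tsc1-/- group carry a different amount of receptor and proximal signalling transcripts. No gene of the group passed the threshold, an adjusted p under 0.05 over all genes (limma). At an unadjusted p under 0.05, 1 of 9 passed, Zap70, which was also the only one under 0.05 in the exact permutation test. Over all 17097 genes, 1.28% passed the adjusted threshold (166 higher and 53 lower; 43 and 34 after quantile normalization) and 17.2% the unadjusted one. The median difference over the 9 genes was 0.02, beside -0.01 over all genes, and the median size of the difference regardless of sign was 0.03, beside 0.11. The differences were above 0 for 6 genes and below 0 for 3 as deposited. After quantile normalization this turned to 3 and 6, with a median of -0.03.

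The intervals bound how much the signal of the brightest probe sets could have changed. For 8 of the 9 genes, all except Zap70, the 95% interval of the difference (limma) lay within 0.25 on the log2 scale in either direction, which is 1.19-fold. Dimmer probe sets of Cd247 and Lcp2 went past this bound. Their 95% intervals were -0.47 to -0.11 (Cd247 1420716_PM_at), -0.59 to -0.01 (Cd247 1426079_PM_at) and -0.44 to 0.21 (Lcp2 1418642_PM_at). Over all genes 19.5% had an interval that narrow, and this bound was chosen after the values were seen. The within-group SD of all 9 genes, 0.03 to 0.13, was below the median over genes of 0.15. None of the 9 lay under the median level over genes. The median SD was 0.08 for the group, the lowest of the T cell lists compared here. It was 0.12 for T cell lineage genes outside the group, 0.12 for inhibitors of receptor signalling and 0.13 for its other positive components. A median SD under 0.15 was thus not particular to the group.

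**Figure D1:**
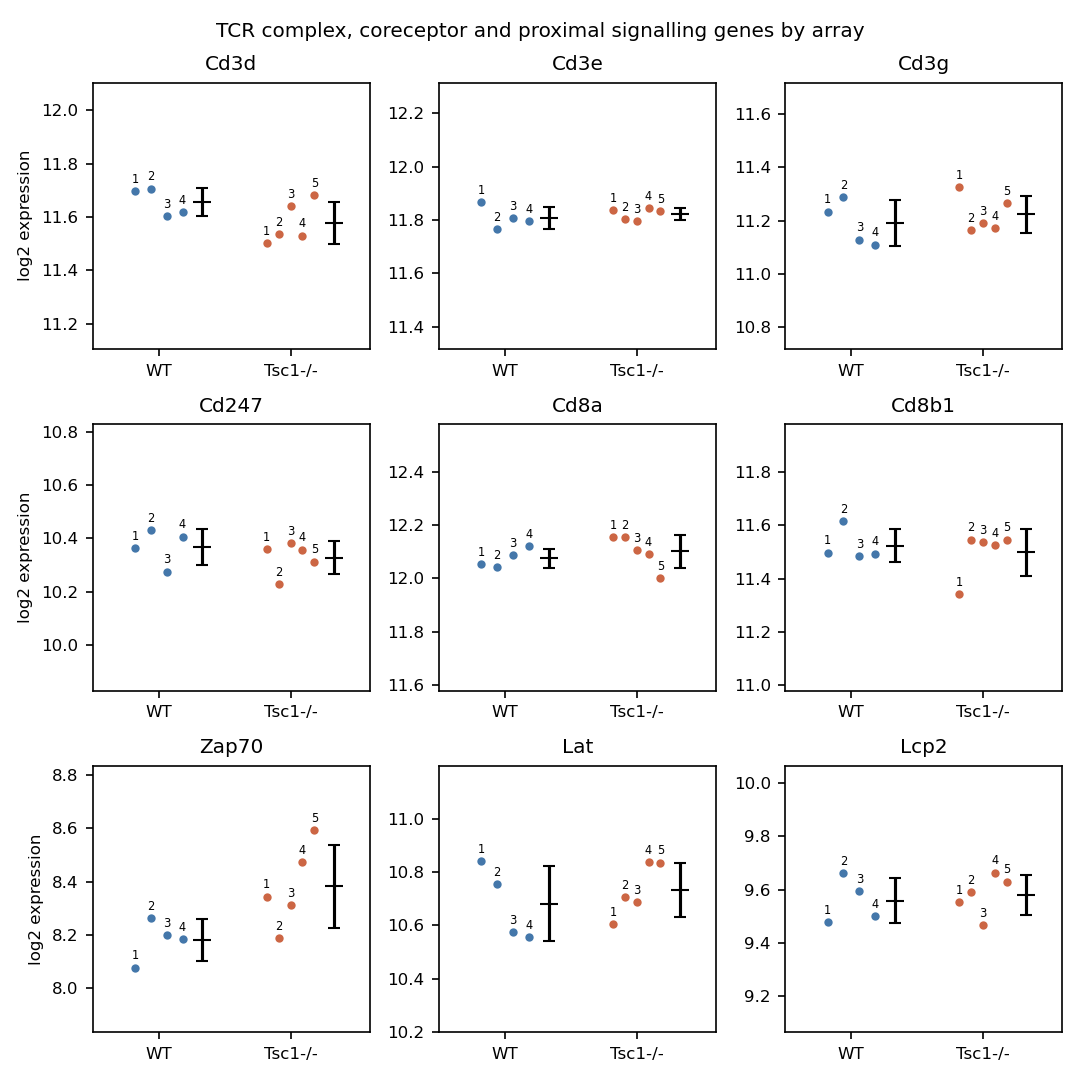
Log2 expression of the 9 measured genes in each array, with the replicate number above each point and the group mean with SD beside it (n = 4 WT, n = 5 Tsc1-/-); every panel spans 1 log2 unit. The genotypes overlap in every panel, and Zap70 shows the largest difference, 0.20.

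Among the CD3 chains, Cd3e, which pairs with both Cd3d and Cd3g and is needed for any receptor to form, was the steadiest of the group. It read 11.87, 11.77, 11.81 and 11.80 in WT and 11.84, 11.80, 11.80, 11.84 and 11.83 in Tsc1-/-, so the 9 arrays spanned 0.10 in all. The WT arrays held both the highest and the lowest value. The difference was 0.01 (SE 0.07, 95% interval -0.13 to 0.16, adjusted p = 0.941, limma), and it turned to -0.02 after quantile normalization.

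Cd3d read 11.70, 11.71, 11.60 and 11.62 in WT and 11.50, 11.53, 11.64, 11.53 and 11.68 in Tsc1-/-. Tsc1-/- replicates 1, 2 and 4 lay below all WT arrays, while replicates 3 and 5 lay among them. Cd3d had the most negative difference of the group, -0.08 (SE 0.07, 95% interval -0.24 to 0.08, adjusted p = 0.634, limma; exact permutation p = 0.143). Its sign was negative in all 20 other settings that tested genes, with values from -0.10 to -0.05.

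Cd3g read 11.23, 11.29, 11.13 and 11.11 in WT and 11.33, 11.16, 11.19, 11.17 and 11.27 in Tsc1-/-. The highest array was Tsc1-/- replicate 1 and the lowest WT replicate 4, with the other arrays mixed. The difference was 0.03 (SE 0.08, 95% interval -0.13 to 0.20, adjusted p = 0.868, limma). It was 0.0062 without WT replicate 4 and turned to -0.03 after quantile normalization.

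The 3 CD3 genes are neighbours on chromosome 9 with no other coding gene between them, and their start site windows are shown because they are the block of the group that shares a locus. The windows, from RefSeq on GRCm38.p6, run from 250 bases before to 50 bases after the start. They are chr9:44981536-44981835 on the plus strand for Cd3d, chr9:45009562-45009861 on the minus strand for Cd3e and chr9:44980382-44980681 on the minus strand for Cd3g, so Cd3d and Cd3g point away from each other. Capitals mark the E-box letters CANNTG and the letters CAGGAAG, an ETS-type site, searched on both strands, and no marked motifs overlap.
Cd3d: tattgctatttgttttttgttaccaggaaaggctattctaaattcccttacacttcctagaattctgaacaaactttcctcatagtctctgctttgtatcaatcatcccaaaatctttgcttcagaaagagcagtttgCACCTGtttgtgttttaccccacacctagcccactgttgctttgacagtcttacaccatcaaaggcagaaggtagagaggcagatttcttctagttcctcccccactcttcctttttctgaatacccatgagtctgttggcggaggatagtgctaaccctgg
Cd3e: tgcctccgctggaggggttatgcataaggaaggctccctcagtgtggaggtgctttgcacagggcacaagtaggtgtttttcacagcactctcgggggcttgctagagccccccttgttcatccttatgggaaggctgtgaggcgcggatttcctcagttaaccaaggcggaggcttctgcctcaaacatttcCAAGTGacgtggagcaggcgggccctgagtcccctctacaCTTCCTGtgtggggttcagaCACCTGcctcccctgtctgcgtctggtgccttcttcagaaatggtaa
Cd3g: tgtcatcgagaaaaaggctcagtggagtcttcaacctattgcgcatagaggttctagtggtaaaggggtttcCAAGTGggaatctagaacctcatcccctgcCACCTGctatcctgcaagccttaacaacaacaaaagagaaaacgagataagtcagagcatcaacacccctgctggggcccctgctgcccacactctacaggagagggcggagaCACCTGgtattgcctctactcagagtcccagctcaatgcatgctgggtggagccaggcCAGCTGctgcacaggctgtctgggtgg
E-box letters occurred 1 time in the Cd3d window, 2 times in that of Cd3e and 4 times in that of Cd3g, and CAGGAAG occurred once, in that of Cd3e.

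Start site windows were listed for 9 of the 10 genes, Lck included and Cd8b1 not, with 12 windows in all because Zap70 and Lck have several. CAGGAAG was found in 7 of these 12 windows, belonging to 6 genes (Cd247, Cd3e, Lat, Lck, Lcp2 and Zap70), beside 13.3% of all 32851 windows. E-box letters were in all 12, beside 72.3%. The TATA box letters TATAAA were in none of the 12, beside 13.6%. The RUNX-type letters TGTGGT were in 3 windows beside 16.8%. The GATA-type letters AGATAA were in 2 windows beside 11.2%. These matches describe letters in the windows and not binding.

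Cd247, the zeta chain, carries more ITAMs than any other chain of the complex and had 4 probe sets. The brightest read 10.36, 10.43, 10.27 and 10.41 in WT and 10.36, 10.23, 10.38, 10.36 and 10.31 in Tsc1-/-, with the groups overlapping. The difference was -0.04 (SE 0.07, 95% interval -0.20 to 0.12, adjusted p = 0.823, limma), and the next probe set, 1452539_PM_a_at, differed by -0.0021 (95% interval -0.19 to 0.19).

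The 2 dimmer Cd247 probe sets read lower in Tsc1-/-. Probe set 1420716_PM_at read 8.11, 8.25, 8.17 and 8.34 in WT and 7.87, 7.79, 7.98, 7.98 and 8.02 in Tsc1-/-. Here the groups did not overlap, the only such case among the 15 probe sets, beside 7.21% of all 28898 probe sets. None of the 15 passed the adjusted threshold over probe sets, beside 0.827%, and 2 were under 0.05 unadjusted (limma), this one and the next. The difference was -0.29 (SE 0.08, 95% interval -0.47 to -0.11, exact permutation p = 0.00794, as low as 4 against 5 arrays allow), with an adjusted p = 0.118 over all probe sets (limma). WT replicate 4, whose macrophage marker mean was within the Tsc1-/- range, read the highest of all arrays. The part of markers of other cells in this difference was not tested.

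Probe set 1426079_PM_at read 8.53, 8.82, 8.91 and 8.36 in WT and 8.26, 8.20, 8.28, 8.70 and 8.34 in Tsc1-/-, a difference of -0.30 (SE 0.13, adjusted p = 0.292, limma). The groups overlapped, through WT replicate 4 and Tsc1-/- replicate 4. In a test chosen after these values were seen, each probe set was taken relative to the brightest within each array. The shift of 1420716_PM_at relative to it was -0.25 (exact permutation p = 0.00794, 0.0238 adjusted over the 3 probe sets compared), that of 1426079_PM_at -0.26 (p = 0.159, adjusted 0.238, exact permutation) and that of 1452539_PM_a_at 0.04 (p = 0.722, adjusted 0.722, exact permutation). The brightest probe set differed by only -0.04, so the contrast of 1420716_PM_at largely repeats its own values and is no further support. Its adjustment over 3 leaves out the choice among the 15 probe sets of the group. Which transcript forms each probe set detects was not analysed here. With the mean of the 4 probe sets in place of the brightest, the Cd247 difference was -0.16 (adjusted p = 0.273, limma).

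**Figure D2:**
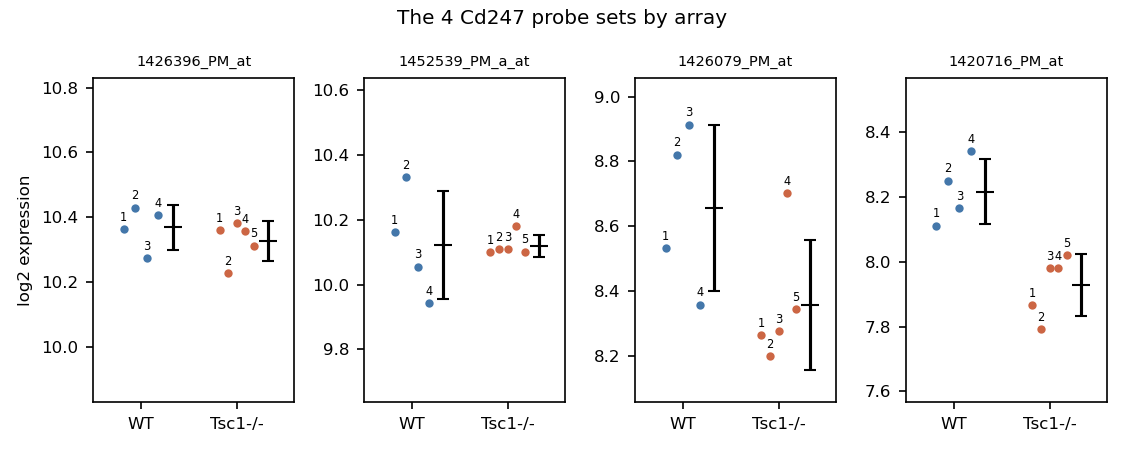
Log2 expression of the 4 Cd247 probe sets in each array, ordered from the brightest on the left, with replicate numbers and group mean with SD (n = 4 WT, n = 5 Tsc1-/-); every panel spans 1 log2 unit. In 1420716_PM_at all WT arrays lie above all Tsc1-/- arrays, while the 2 brightest probe sets overlap.

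Of the coreceptor chains, Cd8a, whose cytoplasmic tail holds Lck, read 12.05, 12.04, 12.09 and 12.12 in WT and 12.16, 12.15, 12.11, 12.09 and 12.00 in Tsc1-/-. Tsc1-/- held both the highest and the lowest array. The difference was 0.03 (SE 0.07, 95% interval -0.13 to 0.18, adjusted p = 0.892, limma). Its other probe sets, 1451673_PM_at and 1444078_PM_at, differed by 0.07 (95% interval -0.10 to 0.23) and -0.06 (95% interval -0.21 to 0.09).

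Cd8b1, which pairs with Cd8a in the heterodimer of conventional CD8+ T cells, read 11.50, 11.62, 11.49 and 11.49 in WT and 11.34, 11.55, 11.54, 11.53 and 11.55 in Tsc1-/-. Tsc1-/- replicate 1 was the lowest array and WT replicate 2 the highest, and the other 7 lay between 11.49 and 11.55. The difference was -0.02 (SE 0.08, 95% interval -0.19 to 0.14, adjusted p = 0.910, limma). Without Tsc1-/- replicate 1 it turned to 0.016.

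Of the kinases, Zap70 read 8.08, 8.26, 8.20 and 8.18 in WT and 8.34, 8.19, 8.31, 8.47 and 8.59 in Tsc1-/-. Tsc1-/- replicates 1, 3, 4 and 5 lay above all WT arrays and replicate 2 among them. The difference, 0.20 (SE 0.09, 95% interval 0.0017 to 0.40), was the largest of the group and corresponds to a level of 115% of WT. It did not pass over all genes (adjusted p = 0.287, limma; unadjusted p = 0.0484; exact permutation p = 0.0476).

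The Zap70 difference was smaller when markers of other cells entered the fit. Tsc1-/- replicates 4 and 5, the highest for Zap70, had the lowest macrophage marker means (6.27 and 6.32). WT replicate 4, whose macrophage marker mean of 6.47 was within the Tsc1-/- range, read among the other WT arrays for Zap70. With that mean as a covariate the difference was 0.11 (adjusted p = 0.867, limma), with the B cell marker mean 0.09 (adjusted p = 0.890, limma), and after quantile normalization 0.13 (adjusted p = 0.491, limma). Both marker means were lower in all Tsc1-/- arrays than in WT replicates 1 to 3, so the covariate fits cannot part them from genotype. The part of other cells in the Zap70 difference was not tested. Its sign was positive in all 20 other settings that tested genes, and the adjusted p was 0.169 or higher (limma).

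Of the adaptors, Lat, the membrane scaffold that Zap70 phosphorylates, read 10.84, 10.75, 10.57 and 10.56 in WT and 10.60, 10.71, 10.69, 10.84 and 10.84 in Tsc1-/-. Both groups covered nearly the same range, with WT replicates 3 and 4 lowest. The difference was 0.05 (SE 0.09, 95% interval -0.14 to 0.24, adjusted p = 0.812, limma), and it ranged from 0.01 without WT replicate 4 to 0.11 without WT replicate 1.

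Lcp2, a cytosolic adaptor that Zap70 phosphorylates, read 9.48, 9.66, 9.59 and 9.50 in WT and 9.55, 9.59, 9.47, 9.66 and 9.63 in Tsc1-/-. The ranges coincided, from 9.48 to 9.66 and from 9.47 to 9.66. The difference was 0.02 (SE 0.08, 95% interval -0.15 to 0.19, adjusted p = 0.920, limma), and its dimmer probe set 1418642_PM_at differed by -0.12 (95% interval -0.44 to 0.21). The sign of Lcp2 turned with the mean of both probe sets (-0.047) and after quantile normalization (-0.051).

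**Figure D3:**
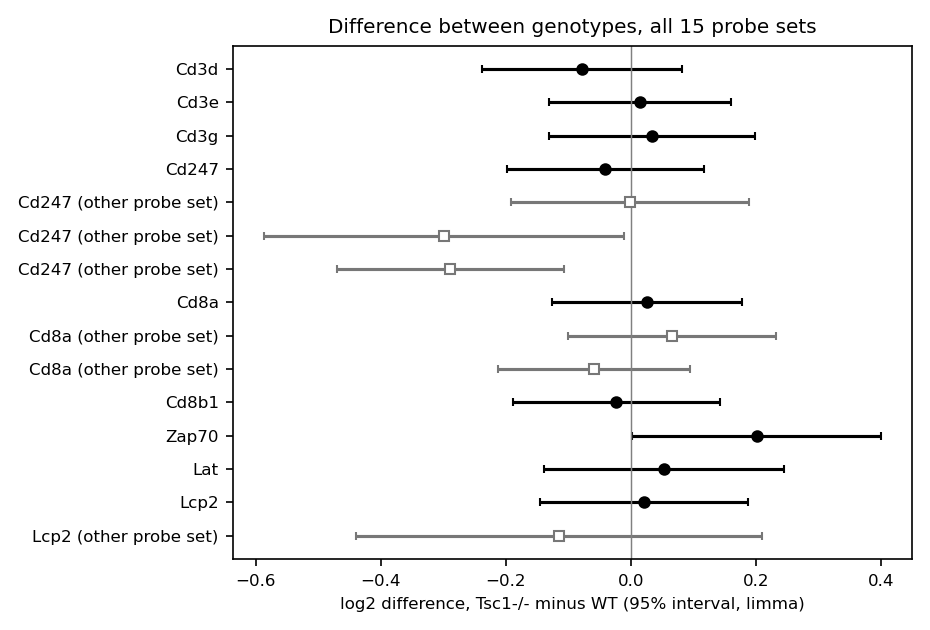
Log2 difference between Tsc1-/- and WT with its 95% interval (limma) for all 15 probe sets: filled circles are the probe set that stands for the gene, from the fit over genes, and open squares the others, from the fit over probe sets. Of the filled circles only Zap70 has an interval above 0, and of the open squares only the 2 dimmer Cd247 probe sets have one below 0.

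The group was read beside markers of other cells, as a limited check of T cell content. In sorted T cells a small share of other cells would change the group's mean little, so its span cannot measure that share. The mean of the 9 genes read 10.75 to 10.84 in WT and 10.77 to 10.86 in Tsc1-/-, a span of 0.10 over all arrays, and the mean of Cd3d, Cd3e and Cd3g 11.51 to 11.60 and 11.50 to 11.59. The mean of the 17 measured T cell lineage genes outside the group spanned 0.19, with 6 differences above 0 and 11 below. Markers of other spleen cells spanned more. The macrophage and monocyte mean spanned 0.96 over the 9 arrays, the B cell mean 0.84 and the dendritic cell mean 0.77. The widest spans were those of the neutrophil (2.55), plasma cell (1.32) and erythroid (1.18) means. WT replicate 4 read 10.75 for the 9 genes, against 10.75 to 10.84 in the other WT arrays. Its macrophage, B cell, dendritic cell, erythroid and NK cell means were lower than in those arrays. Its neutrophil, plasma cell and platelet means lay among theirs.

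Of the macrophage and monocyte list, all 13 measured markers were below 0 in difference (median -0.50), and 1 of 13 fell, Spic (adjusted p = 0.0339, limma), with 7 passing as lower without WT replicate 4. Their summed linear signal was 2337 to 3638 in WT and 2113 to 2517 in Tsc1-/-, and 5 of 13 lay under the median level over genes. All 11 B cell markers were below 0 (median -0.47) and none passed (2 as lower without WT replicate 4, limma). At an unadjusted p under 0.05 there were 5 (limma), beside 17.2% of all genes. Summed signals of the 11 were 1560 to 3174 and 1319 to 2155, and 8 of 11 lay under the median level over genes. All 8 dendritic cell markers were below 0 (median -0.26), none passed (4 unadjusted, limma), and summed signals were 2795 to 4064 and 2179 to 3271. Of these 8, 4 lay under the median level. RMA values have no 0, so absence of a marker cannot be read from them.

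Few markers of other lymphocytes passed. None of the 6 CD4 and regulatory T cell markers and none of the 5 gamma-delta and innate-like T cell markers passed. None of either was at an unadjusted p under 0.05 (limma), beside 17.2% of all genes, and the medians were 0.02 and -0.07. Of the 6, 2 lay under the median level over genes, and of the 5 all did. Of 6 NK cell markers, 1 fell, Eomes, a T-box factor that CD8+ T cells also express (adjusted p = 0.0359, limma). At an unadjusted p under 0.05 there were 4 (limma), beside 17.2% of all genes. Of the 6 differences 4 were below 0 and 2 above, with a median of -0.23. Klrb1c, Ncr1 and Klrk1 differed by -0.28, -0.18 and -0.30 (adjusted p = 0.228, 0.272 and 0.291, limma). Ncr1 was dim, with a WT mean of 4.13 against a median level over genes of 6.34. Gzma, a granule protease that activated CD8+ T cells also express, differed the other way without overlap, at 0.32 (adjusted p = 0.0703, limma). It passed as higher when dim genes were left out, after median centring, with a variance trend, with array weights, and without WT replicate 4 and Tsc1-/- replicate 1 together. With 1 array left out, Spic passed only without WT replicate 4 or Tsc1-/- replicate 1 or 3, and Eomes only without WT replicate 4 or Tsc1-/- replicate 1. None of the 3 plasma cell, 6 neutrophil, 4 erythroid and 5 platelet markers passed (2, 0, 0 and 0 unadjusted, limma). Differences were below 0 for all 6 neutrophil, 3 of 4 erythroid and 4 of 5 platelet markers (medians -0.43, -0.20 and -0.18). The plasma cell marker Jchain differed by -1.71 (adjusted p = 0.0761, limma) and passed as lower without WT replicate 4. The other plasma cell markers measured, the transcription factors Xbp1 and Irf4, which activated T cells also express, differed by 0.21 (adjusted p = 0.257, limma) and 0.18 (adjusted p = 0.638, limma), so the median of that list was 0.18.

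**Figure D4:**
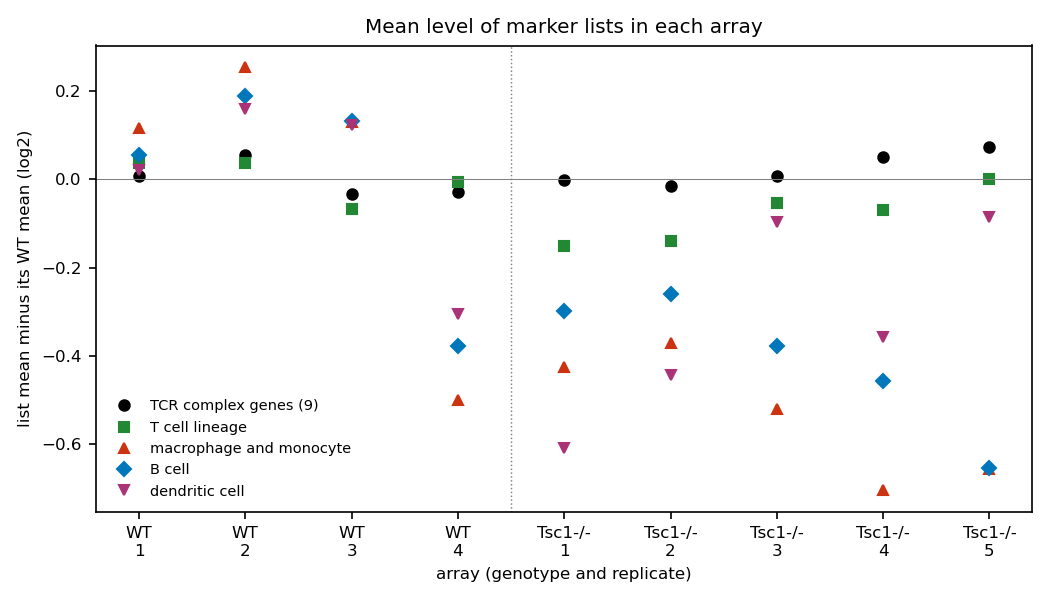
Mean log2 level of marker lists in each array, relative to the WT mean of the same list; each symbol is 1 list and the dotted line parts the genotypes. The 9 receptor complex genes stay within 0.10 over all arrays, while macrophage and B cell markers are lower in WT replicate 4 and in all Tsc1-/- arrays than in the other WT arrays.

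T cell lineage genes outside the group were examined beside it. Of 17 measured, none passed the adjusted threshold, beside 1.28% of all genes. At an unadjusted p under 0.05 were 2 (limma), beside 17.2% of all genes, and the median difference was -0.05. Thy1, a surface glycoprotein of all mouse T cells, differed by 0.01 (95% interval -0.14 to 0.17) and the adhesion receptor Cd2 by 0.02 (95% interval -0.14 to 0.17). Cd27, a costimulatory receptor that effector cells lose as they differentiate, read 10.05 to 10.34 in WT and 9.58 to 9.92 in Tsc1-/-, with no overlap. The difference was -0.39 (SE 0.10, adjusted p = 0.0666, limma; exact permutation p = 0.00794), and it passed when dim genes were left out, with a variance trend or with array weights. Trat1, an adaptor that associates with the receptor complex, differed by -0.30 (adjusted p = 0.210, limma).

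Of the other positive components of receptor signalling, 31 of 34 listed genes were measured and none passed as higher or lower (9 at an unadjusted p under 0.05, limma, beside 17.2% of all genes). Of these, 13 differences were above 0 and 18 below (median -0.02). Genotypes did not overlap in 3 of 31, beside 7.96% of all genes, and in all 3 Tsc1-/- was lower. Tespa1, which links receptor signals to calcium release, read 7.86 to 8.22 in WT and 7.57 to 7.81 in Tsc1-/-, a difference of -0.39 (SE 0.09, adjusted p = 0.0605, limma). It passed as lower without WT replicate 4, also together with Tsc1-/- replicate 1, when dim genes were left out, with a variance trend and with array weights. Fyn, the Src-family kinase related to Lck, and Wipf1, which stabilises the actin regulator WASP, were the other genes without overlap, at -0.20 and -0.18. Among those at an unadjusted p under 0.05, Stim1, the calcium sensor of the endoplasmic reticulum, alone was above 0, at 0.23 (adjusted p = 0.278, limma).

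Of the inhibitors of receptor signalling, 22 of 24 listed were measured and none passed (0 at an unadjusted p under 0.05, limma, beside 17.2% of all genes). Their differences were above 0 for 8 and below 0 for 14 (median -0.07). Genotypes did not overlap in 3 of 22, beside 7.96% of all genes: the adaptor Lax1 at -0.14, the phosphatase Ptpn22 at -0.10, which dephosphorylates Lck and Zap70, and the adaptor Sla2 at 0.13. Their adjusted p was 0.327 or higher (limma). The inhibitors Cd5 and Cblb differed by -0.04 (95% interval -0.23 to 0.15) and -0.09 (95% interval -0.26 to 0.07). Macrophage and B cell marker means were lower in WT replicate 4 and in all Tsc1-/- arrays than in the other WT arrays. With the macrophage or the B cell mean as a covariate, 4 of the 31 positive components were at an unadjusted p under 0.05 in each fit (limma) in place of 9, beside 1544 and 1525 of all 17097 genes in place of 2936. None of the 22 inhibitors was in either fit, and no gene of either list passed the adjusted threshold.

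**Figure D5:**
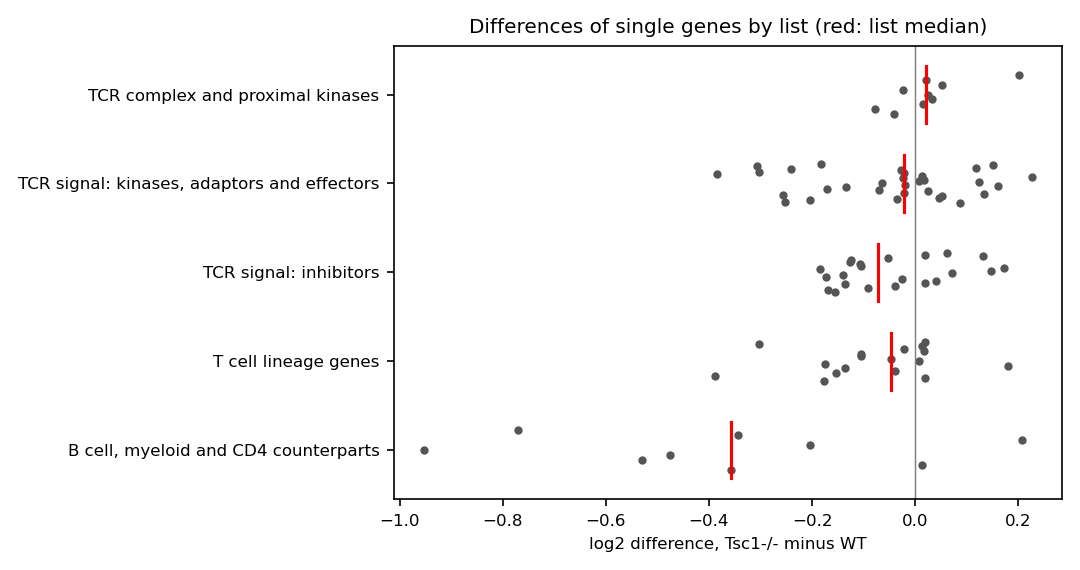
Log2 difference of each measured gene by list, with the list median in red; points are spread vertically only to part them. The 9 receptor complex genes lie between -0.08 and 0.20, and the counterparts reach -0.95.

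Several of these molecules have relatives that do the same work in B or myeloid cells. These were listed as counterparts together with Fyn and Cd4, which T cells express, so the list is no clean contrast by cell type. None of the 9 counterparts passed (5 at an unadjusted p under 0.05, limma, beside 17.2% of all genes), 7 were below 0, and the median was -0.36. Fyn, also counted among the positive components, was among both the 5 and the 7. Fcer1g, an ITAM chain of Fc receptors that can stand in for zeta, read 9.12, 9.01, 9.34 and 8.01 in WT and 8.15, 8.17, 8.10, 7.58 and 7.57 in Tsc1-/-. WT replicate 4 lay within the Tsc1-/- range and the other WT arrays above it. The difference was -0.95 (SE 0.24, adjusted p = 0.0680, limma), and without WT replicate 4 Fcer1g, Syk and Tyrobp passed as lower.

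Syk, the kinase related to Zap70, read 5.63, 5.74, 5.72 and 5.17 in WT and 5.21, 5.32, 5.14, 5.22 and 5.22 in Tsc1-/-, a difference of -0.34 (adjusted p = 0.138, limma), again with WT replicate 4 among the Tsc1-/- arrays. Tyrobp, an ITAM adaptor of myeloid and NK receptors, differed by -0.77, the B cell receptor chains Cd79a and Cd79b by -0.53 and -0.47, and Blnk, the B cell relative of Lcp2, by -0.36. WT replicate 4 was the lowest WT array for each of these 4 genes. Lat2, the relative of Lat in B and myeloid cells, differed the other way, by 0.21 (adjusted p = 0.397, limma). Its Tsc1-/- arrays began at 6.62, where the WT arrays ended, and Tsc1-/- replicate 1 reached 7.23. Cd4, the coreceptor of helper T cells, differed by 0.01 (95% interval -0.33 to 0.36).

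Fyn did not share that pattern. It read 10.55, 10.50, 10.40 and 10.59 in WT and 10.23, 10.33, 10.31, 10.32 and 10.32 in Tsc1-/-, with WT replicate 4 the highest array. The difference was -0.20 (SE 0.07, 95% interval -0.36 to -0.05, adjusted p = 0.172, limma; exact permutation p = 0.00794).

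The genes whose levels most resembled the mean of Cd3d, Cd3e, Cd3g and Cd247 over the 9 arrays were ranked by Pearson's r among 8540 genes at or above the median level. They were Pprc1 (r = 0.928, Spearman's rho = 0.950), Ppm1j (0.926, 0.983), Zfp326 (0.905, 0.867), Reck (0.883, 0.867) and Fli1 (0.867, 0.833). None of these 5 passed the comparison of genotypes (adjusted p = 0.291 or higher, limma). The profile they were matched to spanned only 0.12, and as the best of 8540 they are a description of these arrays.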

How the data were processed

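Expression was measured on 1 array per sample in 4 WT and 5 Tsc1-/- samples, from 12 ng of RNA each, per the labels' protocols. The authors deposited log2 values, 1 for each probe set, and the submitters' processing notes name RMA and Partek 6.5. For RMA's options, filters and genome build the notes used here give nothing. RMA equalises the arrays' distributions, which hides any shift common to most transcripts. Array medians were 5.97 to 6.05, and precision is limited by the number of arrays.

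The table held 45037 probe sets, of which 28898 had 1 gene in the platform annotation, 551 several and 15588 none. Symbols were updated through Entrez identifiers (28689 matched) with the RefSeq table of GRCm38.p6. Probe sets of several genes were not used. A linear model with genotype as its 1 term was fitted per gene (limma 3.58.1, R 4.3.3; lmFit, then eBayes), two-sided, Benjamini-Hochberg adjusted over all 17097 genes, or over 28898 probe sets where these are named. Exact permutation tests of single values used the 126 splits into 4 and 5 arrays, two-sided, with a smallest p of 0.00794. The test was tested on simulated data. Figures used Python 3.11.15 with matplotlib 3.10.9.

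The gene group and all lists were chosen with earlier results of these data known. The rule for names was all genes of the group, Tsc1, all counterparts, and from other lists up to 4 genes past the threshold or 2 with the smallest p, of which some are left out. Other names (Thy1, Cd2, Stim1, Wipf1, Ptpn22, Sla2, Cd5, Cblb, Jchain, Gzma, Klrb1c, Ncr1, Klrk1, Xbp1, Irf4) were chosen after values were seen. Nothing says that samples came from separate animals, and the p-values then reflect only the spread among these samples. Replicate numbers did not pair the samples, as given with the alternatives: probe set summary, dim genes, normalization, centring, variance model, array weights, block, threshold, covariates and arrays left out. The setting named a variance trend also used limma's robust option, so the 2 changes were made together.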

Additional observations from a re-analysis of the deposited data

Results flagged for a closer look

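Arrays far from the others of their group were looked for in 78 groups of 4 or 5 values, and chance flags about 1 in 20. The 7 found are given as values. Cd8b1 was highest in WT replicate 2, at 11.62 against 11.49 to 11.50, and lowest in Tsc1-/- replicate 1, at 11.34 against 11.53 to 11.55. Tsc1-/- replicate 4 was highest for the Cd247 probe sets 1426079_PM_at, at 8.70 against 8.20 to 8.34, and 1452539_PM_a_at, at 10.18 against 10.10 to 10.11. Fyn was lowest in Tsc1-/- replicate 1, at 10.23 against 10.31 to 10.33, and Cd79a in Tsc1-/- replicate 5, at 5.70 against 6.49 to 6.80. The mean of the B cell, myeloid and CD4 counterparts was lowest in WT replicate 4, at 6.94 against 7.54 to 7.60.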

How the results depend on the processing

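No gene of the group passed in any of the 22 other settings, leaving out each array included (0 in each, limma). The median difference of the 9 genes lay between 0.0062 and 0.024 with each array left out and at -0.028 after quantile normalization. Signs turned only for small differences: Cd3e (-0.023), Cd3g (-0.028) and Lcp2 (-0.051) after quantile normalization, Lcp2 with the mean of its probe sets and with probe sets not joined (-0.047 in both), Cd8b1 after median centring (0.0050), and Cd3g (-0.020) and Cd8b1 (0.0059) without WT replicate 4 and Tsc1-/- replicate 1. With 1 array left out Cd8b1 lay between -0.036 and 0.016 and Lcp2 between -0.0058 and 0.056. The cause was not tested.

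Over all genes, 219 passed. The count was 682 with dim genes left out (fewer genes tested), 77 after quantile normalization and 401 after median centring. It was 680 with a variance trend and limma's robust option together, 465 with array weights and 393 without WT replicate 4 and Tsc1-/- replicate 1. At an adjusted p under 0.1 the count was 738. With the macrophage or the B cell mean as a covariate it was 0 (1544 and 1525 at an unadjusted p under 0.05, limma). Without 1 array it lay between 2 and 456: 2 without WT replicate 1 and without Tsc1-/- replicate 5, 3 without WT replicate 2, 83 without WT replicate 3, 456 without WT replicate 4, and 188, 8, 53 and 30 without Tsc1-/- replicates 1 to 4. With the replicate number as a block it was 0 (2354 unadjusted, limma), Tsc1-/- replicate 5 being alone in its block and so without weight. Same-numbered arrays deviated together with correlations of -0.10, 0.09, -0.07 and 0.02, and 1 of 4 WT arrays correlated best with its own number, so the numbers were not taken as pairs. Scaling each array to Cd3d, Cd3e and Cd3g, chosen after their values were seen, gave 169 genes and none of the group.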
